A study of Bos taurus with 8 samples.

Results

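The values concern 10 genes of the Wnt system in cultured bovine muscle cells: the ligand WNT5A, the Frizzled receptors FZD1 and FZD7, the secreted inhibitors SFRP1, SFRP2, SFRP4, FRZB, and DKK3, and the target genes AXIN2 and WISP1. They were chosen by name, and their probes were found through the RefSeq accession that the array lists for each probe. A probe was matched for 8 of the 10 genes, with 9 probes among the 21475 of the array, since AXIN2 had 2. No probe was matched to WNT5A or WISP1, which were not analysed here. The remaining genes were measured with 1 probe each, and 7 of the 8 had a probe that was tested, which required a signal well above background in 4 or more of the 16 channels. FRZB and the second probe of AXIN2 did not reach that level.

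RNA came from primary cultures of semitendinosus muscle cells of 15-month-old bulls, 4 each of Limousin (LIM) and Hereford (HER), which are beef breeds, and of Holstein Friesian (HF), a dairy breed used as the reference. The cells were untreated and were taken while dividing, at 80% confluence. On 4 arrays HER RNA was labeled with Cy3 and HF RNA with Cy5, and on the other 4 LIM RNA with Cy5 and HF RNA with Cy3. The HER arrays shared one slide and the LIM arrays another, so that within a comparison the effects of breed, slide, and dye cannot be told apart, whereas a dye effect cancels in the mean of both comparisons (here the beef mean). The LIM and HER comparisons share the HF breed as reference, and the sources used here do not say which HF bull each array carried. The cultures had been enriched for myoblasts by repeated preplating and still held other cells, and in such a mixture fewer cells of a type and less RNA per cell cannot be told apart.

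Wnt proteins are secreted signals that bind Frizzled receptors together with LRP co-receptors. In the canonical branch this stops the breakdown of beta-catenin, which then acts with TCF factors on target genes such as AXIN2, itself a brake on the pathway. Secreted Frizzled-related proteins (SFRP1, SFRP2, SFRP4, and FRZB) resemble the ligand-binding part of a Frizzled receptor and can hold Wnt proteins outside the cell. In skeletal muscle, Wnt signals are known to act on satellite cells, the stem cells of the muscle fiber, and on the fibroblast-like cells around them.

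The share of all probes well above background was 68.8% to 85.2% in beef channels and 73.8% to 78.0% in HF channels, no spot was saturated, and the median log2 ratio of an array lay between -0.07 and 0.02. Of the 12 myogenic markers listed, 9 were matched to a probe, and all 9 were well above background in all 16 channels. Their summed processed signal ranged from 35262 to 101180 in HER, from 48572 to 123636 in LIM, and from 12031 to 61252 in HF cultures. For the 12 of 15 fibroblast markers matched to a probe, the sum ranged from 290175 to 553388 in HER and from 369425 to 796584 in LIM. In HF cultures it ranged from 62350 to 237698 over both slides, which were not scaled to each other. Such a sum is weighted toward the brightest genes. On HER array 1 COL1A1 was at 159698 and COL1A2 at 127390, against 359 for PDGFRA. In the beef mean, 8 of 9 myogenic markers were higher and 0 lower, and 8 of 12 fibroblast markers were higher and 3 lower (limma, adjusted p of at most 0.05), where 47.6% of all probes were called, 21.4% higher and 26.2% lower. The part of these cell types in the differences given next was not tested. The number of arrays, 4 per comparison, limits the precision of every value.

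DKK3 and SFRP1, both listed here as secreted inhibitors, were higher in the beef breeds than in HF on all 8 arrays. Whether DKK3 inhibits Wnt signals in these cells was not tested. The differences were 4.77-fold for DKK3 and 2.37-fold for SFRP1 in the beef mean. SFRP2 and SFRP4, of the same inhibitor family as SFRP1, had no common direction, with log2 ratios from -3.29 to 2.83 and from -1.63 to 2.80. The receptors FZD1 and FZD7 and the target AXIN2 did not pass the test in any comparison.

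**Figure D1:**
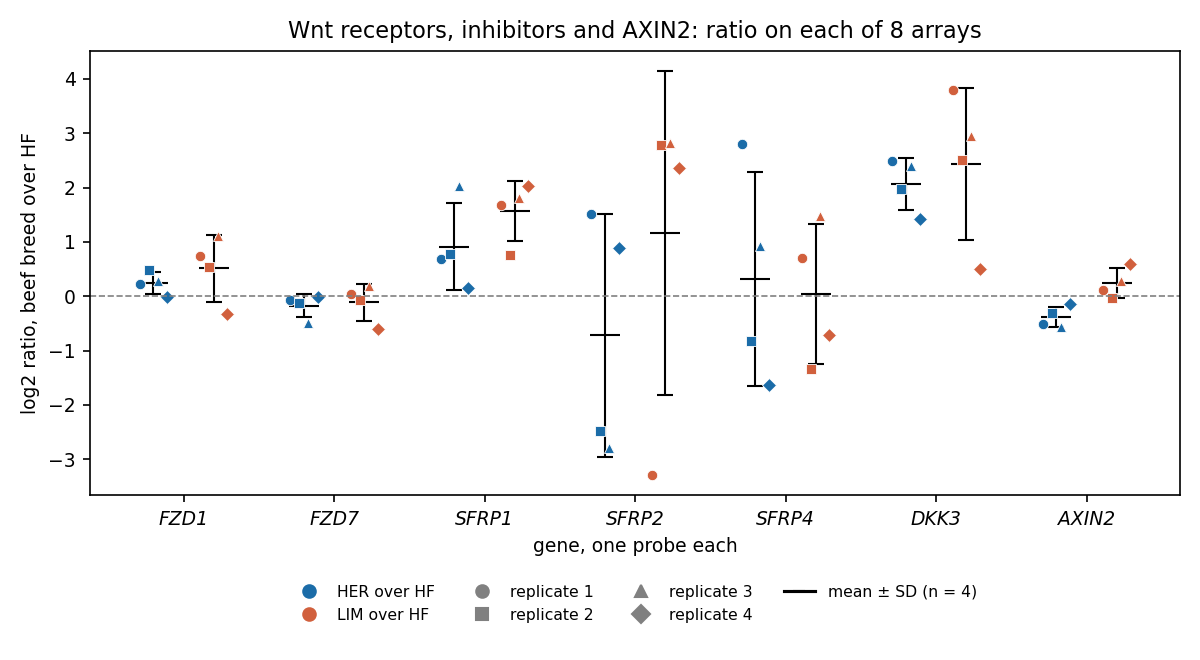
Log2 ratio of beef breed over HF for the 7 genes tested, with each point 1 array (blue for HER, orange for LIM, symbol by replicate number) and bars for mean ± SD over 4 arrays. DKK3 and SFRP1 lie above 0 on all 8 arrays, whereas the points of SFRP2 run from -3.29 to 2.83.

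Calls were made with limma at a Benjamini-Hochberg adjusted p of at most 0.05 over 17622 probes. Of the 7 genes, 2 were called in the beef mean (28.6%), both higher, beside the 47.6% of all probes. In LIM against HF, the same 2 were called higher, DKK3 and SFRP1, where 35.9% of all probes were called, 16.6% higher and 19.4% lower. In HER against HF, DKK3 alone was called (14.3%), where 25.4% of all probes were called, 10.7% higher and 14.7% lower. With 7 genes, a single call moves such a share by 14.3 points, and nothing is read from its distance to the share of all probes. The LIM and HER ratios themselves differed for 0 of the 7 genes in limma, where 0.233% of all probes were called. At an unadjusted p of at most 0.05 it was 1 of the 7, beside 2584 of the 17622 probes, and nothing is read from that 1. The methods' t-test at its own thresholds called 1 of the 7, and 2133 among all probes, so nothing is read from that call either. The median log2 ratio of the 7 genes in the beef mean was 0.22, beside -0.04 for all probes, and the median of the absolute log2 ratio was 0.22, beside 0.33.

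DKK3 (probe A_73_116904) encodes a secreted glycoprotein of the Dickkopf family. Its log2 ratio to HF was 2.49, 1.97, 2.39, and 1.42 on HER arrays 1 to 4, and 3.79, 2.51, 2.95, and 0.50 on LIM arrays 1 to 4. The ratio was above 0 on every array and lowest on array 4 of each comparison, and the HER and LIM values overlapped. The processed signal of the HF channel was 1538, 2338, 1353, and 2968 on the HER slide and 1608, 2943, 2186, and 4125 on the LIM slide, so HF was brightest on array 4 of both. HER signals of 8636, 9159, 7098, and 7948 stood within 1.29-fold of each other, and 4.01% of all probes had a range that narrow. LIM signals were 22228, 16753, and 16880 on arrays 1 to 3, against 5851 on array 4. On each slide the beef and HF signals did not overlap.

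In limma, DKK3 was 4.19-fold higher in HER than in HF (log2 2.07 ± 0.49, SD, n = 4; adjusted p = 0.015) and 5.42-fold higher in LIM (log2 2.44 ± 1.39, SD, n = 4; adjusted p = 0.0045). The log2 difference in the beef mean was 2.25, with a 95% interval from 1.53 to 2.98 and an adjusted p of 0.00083. The HER call was lost without HER array 1, 2, or 3, with adjusted p-values of 0.068, 0.057, and 0.051, and with normexp on the local backgrounds as measured (1.41, adjusted p = 0.26). The LIM and HER ratios of DKK3 differed by 0.37 on the log2 scale, with an interval from -1.08 to 1.82 (adjusted p = 0.84). Without LIM array 4 the LIM log2 ratio was 3.08.

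Of the 12 fibroblast markers tested, 6 (DCN, LUM, COL1A1, COL1A2, COL3A1, and THY1) also had their lowest ratio on array 4 of both comparisons, as did 3 of 9 myogenic markers and 15.2% of all probes. These 6 genes were named after their values were seen, and the list was not of one direction. PDGFRA, TCF21, and DPT of the same list were lower in the beef mean, by 1.42, 1.13, and 0.95 on the log2 scale. Their limma adjusted p-values were 0.00031, 0.0028, and 0.00056. None of the 3 had its lowest ratio on array 4 of both comparisons. For a gene lower in beef the smallest difference is the highest ratio. It was on HER array 3 and LIM array 4 for the brighter probe of PDGFRA (-0.76 and -0.99) and for TCF21 (-1.32 and -0.03). For DPT it was on HER array 4 (-0.38) and LIM array 2 (-0.96). None of the 3 had it on array 4 of both comparisons. The second probe of DCN was below 0 on all 8 arrays, from -0.36 to -0.15 in HER and from -0.94 to -0.06 in LIM, while the first was above 0 on 6. The log2 ratio of COL1A1, a fibrillar collagen chain, was 1.05 on HER array 4 and 0.77 on LIM array 4, and from 1.91 to 3.23 on the other arrays. Whether the fibroblast share of the cultures has a part in the DKK3 ratios was not tested.

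SFRP1 (probe A_73_107025) had a log2 ratio of 0.70, 0.79, 2.03, and 0.15 on HER arrays 1 to 4, and 1.69, 0.76, 1.81, and 2.03 on LIM arrays 1 to 4. All 8 values were above 0, as they were for 11.7% of all probes, with HER array 4 close to it, and the HER and LIM values overlapped. The HF signal was 210, 190, 75.5, and 199 on the HER slide and 331, 305, 158, and 310 on the LIM slide. HF was dimmest on array 3 of both slides, and the order of the HF signals over the array numbers was the same on both. The HER signal was 339, 327, 309, and 220, a range of 1.54-fold, and the LIM signal was 1065, 519, 554, and 1267. The largest HER ratio was on array 3, where the HF signal was dimmest. Signals were not scaled between arrays, so the part of each channel in that ratio was not tested.

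SFRP1 was 2.97-fold higher in LIM than in HF (log2 1.57 ± 0.56, SD, n = 4; limma adjusted p = 0.0053). In HER the log2 ratio was 0.92 ± 0.80 (SD, n = 4), with an adjusted p of 0.057. In the beef mean it was 1.24, with an interval from 0.75 to 1.73 and an adjusted p of 0.0021, and it was 0.64 with normexp on the local backgrounds as measured (adjusted p = 0.0037). The HER value passed the test under 6 of 21 alternatives, among them each array centred on its median and arrays scaled to one spread, so its absence from the HER calls depends on the processing. The HER value was also smaller without HER array 3 (0.54) and with normexp on the local backgrounds as measured (0.17). A difference between LIM and HER was not shown, since it was 0.66 with an interval from -0.32 to 1.63 (adjusted p = 0.53).

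**Figure D2:**
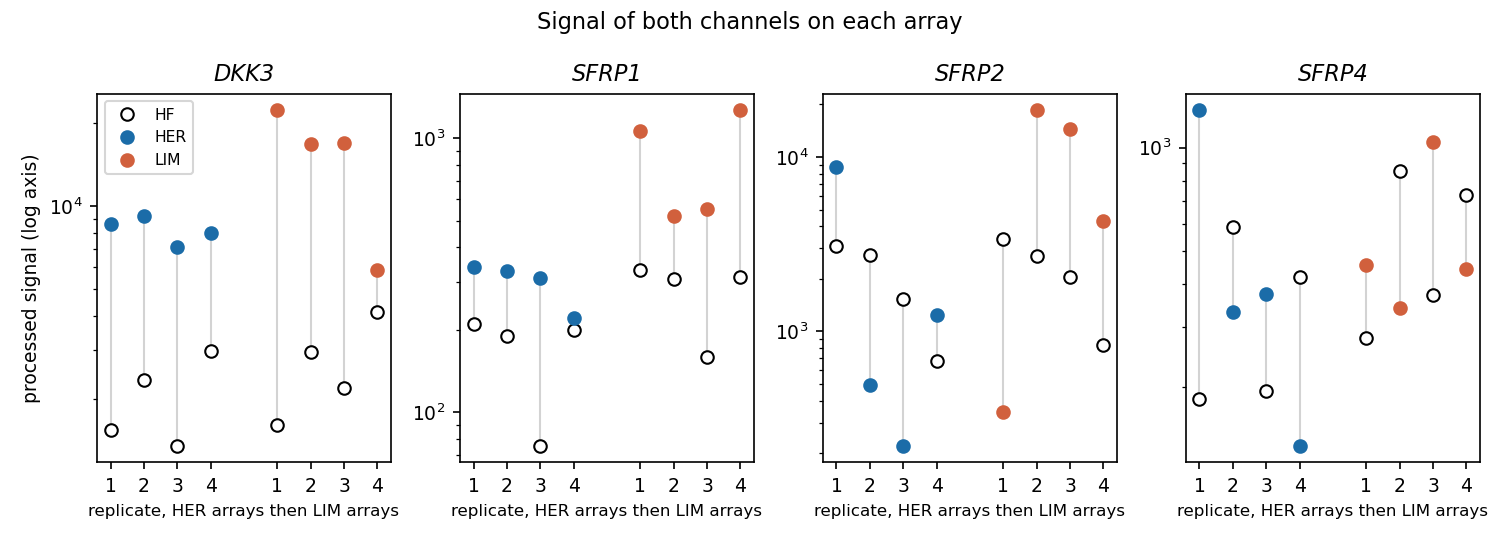
Processed signal (log axis) of DKK3, SFRP1, SFRP2, and SFRP4 in the HF channel (open circles) and the beef channel (blue for HER, orange for LIM) of each array, joined by a line within an array. For DKK3 and SFRP1 the beef channel is above the HF channel on all 8 arrays, while for SFRP2 and SFRP4 the channels change places from array to array.

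SFRP2 (probe A_73_121306), a secreted Frizzled-related protein, was the gene whose ratio varied most. Its log2 ratio was 1.51, -2.48, -2.80, and 0.88 on HER arrays 1 to 4, and -3.29, 2.78, 2.83, and 2.36 on LIM arrays 1 to 4. It was higher than HF on 5 arrays and lower on 3, and each comparison held values of both signs. The SD over 4 arrays was 2.23 in HER and 2.98 in LIM, beside medians of 0.30 and 0.37 over all probes, and 99.4% and 99.9% of the probes had a smaller SD.

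Both sides of the ratio varied, the beef side more. In the HF channel SFRP2 was at 3089, 2753, 1541, and 674 on the HER slide and 3386, 2699, 2041, and 834 on the LIM slide, in the same order on both, with a range of 4.58-fold and 4.06-fold. The HER signal was 8799, 495, 222, and 1242, a range of 39.7-fold, and the LIM signal was 346, 18530, 14479, and 4268, a range of 53.6-fold. The medians of such ranges over all probes were 1.74-fold in HER, 1.64-fold in LIM, and 1.73-fold and 1.51-fold in HF on the HER and LIM slides. The HF ranges of SFRP2 were thus also wide, at or above those of 97.3% and 97.0% of all probes. The probe was well above background in all 16 channels, so the low signals were measured values.

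In limma the log2 ratio of SFRP2 was -0.72 in HER (interval -3.27 to 1.83, adjusted p = 0.66) and 1.17 in LIM (interval -1.38 to 3.72, adjusted p = 0.44). In the beef mean it was 0.22, with an interval from -1.58 to 2.03 and an adjusted p of 0.83. These intervals hold differences of several fold in either direction. Without LIM array 1 the LIM log2 ratio was 2.65, with an adjusted p of 0.051, and without array 2, 3, or 4 it was 0.63, 0.61, or 0.77. The HER value ran from -1.46 without HER array 1 to -0.03 without HER array 3.

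The signs of the SFRP2 ratios were set beside those of markers of endothelial cells. Of the 8 listed, 5 were matched to a probe (TEK, KDR, TIE1, EMCN, and CLDN5), and PECAM1, CDH5, and VWF were not. Endomucin (EMCN), a surface glycoprotein of capillaries and veins, had log2 ratios of 4.16, -0.50, -4.11, and 2.06 on the HER arrays and -1.95, 3.31, 0.89, and 4.20 on the LIM arrays. KDR, a receptor for vascular endothelial growth factor, had 3.32, -0.15, -2.40, and 1.51, then -0.33, 2.54, 0.74, and 3.09. Both had the sign of SFRP2 on 8 of 8 arrays, as did 0.868% of all probes.

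TEK and TIE1, the angiopoietin receptor and its relative, had that sign on 7 of 8 arrays, and CLDN5, a claudin of endothelial junctions, on 5 of 8. The summed processed signal of the 5 endothelial markers ranged from 220 to 5661 in HER, from 525 to 8080 in LIM, and from 437 to 2088 in HF cultures, and 3 of the 5 were well above background in all 16 channels. Of the other markers, 1 of 12 of fibroblasts (FAP) and 1 of 3 of leukocytes (CD14) had the sign of SFRP2 on 7 of 8 arrays, and none of 9 myogenic markers on more than 5. A gene above 0 on all 8 arrays has that sign on exactly 5, where SFRP2 was above 0. MYF5, MYF6, MYOG, DES, CDH15, CHRNA1, and ITGA7 were such genes, so the myogenic count follows from their direction and nothing is read from it. The sign was also shared by other genes of the pathway, on 8 of 8 arrays by the glypican GPC3, a cell-surface proteoglycan with log2 ratios from -0.27 to 0.64, and on 7 of 8 by WNT2B, MYC, and CTGF, so that 4 of 30 matched on 7 or 8 arrays, beside 4.07% of all probes. Those counts were made after the values were seen, and nothing particular to endothelial markers is read from them. The part of endothelial cells in the SFRP2 ratios was not tested.

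**Figure D3:**
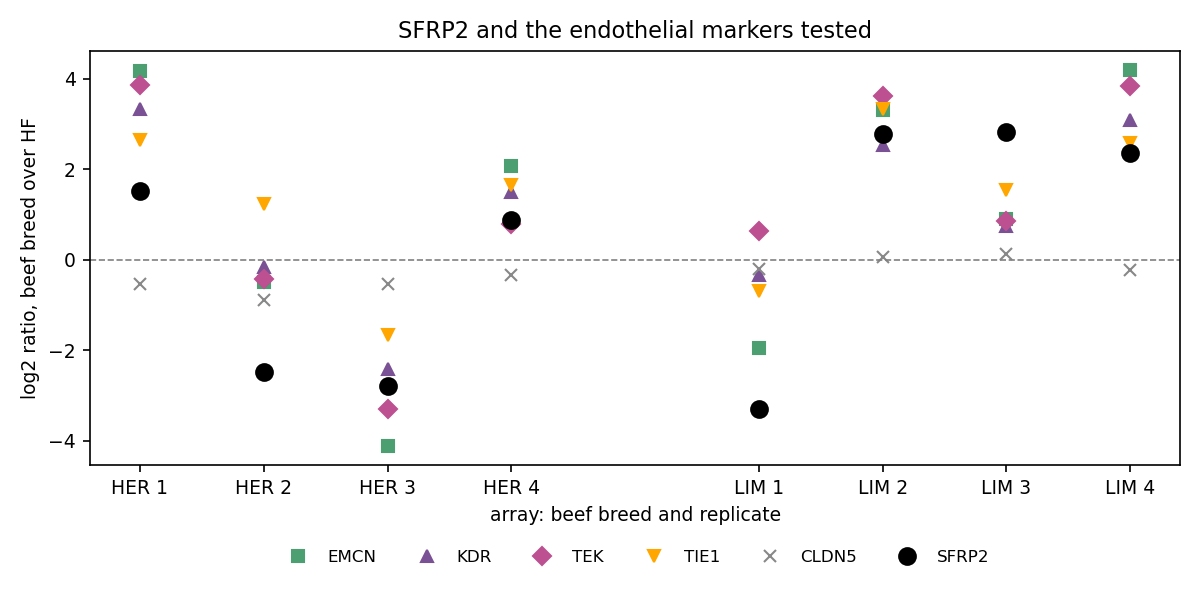
Log2 ratio of beef breed over HF on each array for SFRP2 (black circles) and the 5 endothelial markers tested. SFRP2, EMCN, and KDR are on the same side of 0 on all 8 arrays, and CLDN5 stays between -0.88 and 0.13.

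SFRP4 (probe A_73_120817), another secreted Frizzled-related protein, had log2 ratios of 2.80, -0.83, 0.93, and -1.63 on the HER arrays and 0.71, -1.33, 1.48, and -0.71 on the LIM arrays. Array numbers 1 and 3 were above 0 and numbers 2 and 4 below 0 in both comparisons. The HF signal was 184, 588, 195, and 418 on the HER slide and 277, 855, 370, and 725 on the LIM slide, so the HF channel was bright on arrays 2 and 4 and dim on arrays 1 and 3 of both slides. The HER signal was 1285, 331, 373, and 135 and the LIM signal 453, 339, 1036, and 443. The beef channels were thus not in one order on both slides, whereas the HF channels were, as for SFRP1, SFRP2, and 31.7% of all probes.

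In limma the log2 ratio of SFRP4 was 0.32 in HER (SD 1.97, n = 4) and 0.04 in LIM (SD 1.29, n = 4), with adjusted p-values of 0.77 and 0.97. The beef mean of 0.18 had an interval from -0.97 to 1.32 (adjusted p = 0.79). The SD was above that of 99.1% of all probes in HER and of 95.9% in LIM. SFRP2 and SFRP4 had opposite signs on 5 of 8 arrays, HER arrays 3 and 4 and LIM arrays 1, 2, and 4.

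FRZB (probe A_73_115892), the remaining Frizzled-related protein, was well above background in 2 of 16 channels, both on HER array 2, with processed signals of 25.5 for HER and 19.9 for HF. In the other channels the signal was between 2.52 and 6.96, which was not well above background, and no ratio is drawn from them. On HER array 2 the log2 ratio was 0.22.

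The receptors were steadier. FZD1 (probe A_73_100213) had log2 ratios of 0.23, 0.49, 0.29, and -0.02 on the HER arrays and 0.74, 0.55, 1.11, and -0.33 on the LIM arrays. It was above 0 on 6 of 8 arrays, and both values below 0 were on array 4. The HF signal lay between 1893 and 3347, the HER signal between 1916 and 3833, and the LIM signal between 2545 and 6336, so the groups overlapped. In limma the beef mean was 0.38, with an interval from 0.04 to 0.72 and an adjusted p of 0.064, and the LIM and HER values were 0.51 (adjusted p = 0.089) and 0.25 (adjusted p = 0.41). The value in the beef mean passed the test under 4 of 22 alternatives, among them the fit with the replicate number as a block (adjusted p = 0.041) and the one without LIM array 4 (0.52, adjusted p = 0.0036). With the arrays of one number averaged to 4 values it did not pass (adjusted p = 0.13).

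FZD7 (probe A_73_117532), a Frizzled receptor found on satellite cells, had log2 ratios of -0.07, -0.12, -0.48, and -0.01 on the HER arrays and 0.04, -0.07, 0.18, and -0.60 on the LIM arrays. Its signal was between 63.1 and 161 in all 16 channels, and each was well above background. The beef mean was -0.14 in limma, with an interval from -0.38 to 0.10 (adjusted p = 0.29), and its sign turned under 1 of 22 alternatives.

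AXIN2, a direct target of canonical Wnt signals, was measured by probe A_73_108476 with log2 ratios of -0.50, -0.31, -0.56, and -0.15 on the HER arrays and 0.12, -0.04, 0.28, and 0.60 on the LIM arrays. All 4 HER values were below all 4 LIM values, the only one of the 7 genes without overlap between the comparisons, as for 10.2% of all probes. In limma the ratio was -0.38 in HER (adjusted p = 0.064) and 0.24 in LIM (adjusted p = 0.18), and the beef mean was -0.07 (interval -0.28 to 0.14, adjusted p = 0.56). The LIM ratio was higher than the HER ratio by 0.62, with an unadjusted interval from 0.20 to 1.04 and a limma adjusted p of 0.19, so it was not called. The HER value was called lower with array weights (adjusted p = 0.032) and without LIM array 4 (adjusted p = 0.031), and with normexp on the local backgrounds as measured it was -0.05 and the LIM minus HER difference 0.13. Because the dyes were reversed between the slides, breed and dye cannot be told apart in that difference.

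The HF signal of AXIN2 was between 43.9 and 78.2, the HER signal between 30.8 and 56.5, and the LIM signal between 73.6 and 85.0. The second probe of AXIN2, A_73_110169, was well above background in 1 of 16 channels, HER array 3, with a signal of 22.4, and between 4.02 and 12.4 in the others. It therefore gave no check of the first probe.

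A wider list of 102 other genes of the pathway was examined in the same fit, of which 35 were matched to a probe and 30 were tested. Only 7793 of the 20693 accessions of the array could be named, so a gene without a match may still have a probe. In the beef mean, 7 of the 30 were higher and 10 lower, 56.7% in all beside the 47.6% of all probes, and 13 did not pass. One of the 7, WNT1, was tested only because of its beef channels, and without it 6 of 29 were higher. The median log2 ratio was 0.06. Among modulators outside or on the cell, 7 of 8 were called, 2 higher and 5 lower, whereas 0 of 5 cytoplasmic transducers were, with 0 also at an unadjusted p of at most 0.05.

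RSPO1, an R-spondin, a secreted protein that strengthens Wnt signals, had the largest difference among them as reported, though not with every background correction. Its log2 ratio was 2.56, 3.59, 2.44, and 2.16 on the HER arrays and 3.86, 2.70, 4.58, and 2.08 on the LIM arrays, all above 0. It was higher by 3.00 in the beef mean (adjusted p = 0.00022). RSPO3, of the same family, was higher by 0.91 (adjusted p = 0.024), with values of 1.37, 1.57, 2.53, and 1.50 in HER and -1.22, -0.53, 0.81, and 1.23 in LIM. The LIM and HER ratios of RSPO3 differed by -1.67 (adjusted p = 0.21), and its call was lost under 4 of 22 alternatives.

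Of the inhibitors that are not among the 10 genes, all 4 with a called difference were lower in the beef breeds, unlike DKK3 and SFRP1. DKK2, a Dickkopf protein that binds LRP co-receptors, fell by 1.24 (adjusted p = 0.00036), and its values ran from -1.37 to -0.25 in HER and from -2.33 to -1.52 in LIM. SFRP5, a Frizzled-related protein, fell by 1.13 (adjusted p = 0.001). WIF1 and SOST, which bind Wnt proteins and LRP co-receptors, fell by 0.48 and 0.36 (adjusted p = 0.0032 and 0.019), and the SOST call was lost under 7 of 21 alternatives. PORCN, the enzyme that attaches the lipid which Wnt proteins need for secretion, fell by 0.63 (adjusted p = 0.0026).

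Of 18 other Wnt ligands, 5 were matched to a probe and 3 were tested. WNT11, a ligand mostly of the noncanonical branch, fell by 1.60 (adjusted p = 0.0011), with ratios of -2.23, -2.26, -0.72, and -0.63 in HER and -1.69, -2.60, -1.58, and -1.13 in LIM. The HER channel was well above background on only 2 of 4 arrays, with signals of 9.70, 15.3, 45.5, and 29.4. The size of the fall in HER is therefore uncertain. WNT1, a canonical ligand, was well above background in 6 beef channels and on none of the 8 arrays in HF, so it passed the filter only through the side where it was bright. Its call carries no weight, and only an estimate for LIM can be given, where 4 of 4 arrays were above background. Against the lowest HF signal well above background, or its own HF signal where higher, WNT1 was 2.25-fold higher in LIM. This is not a strict lower bound, since brighter HF signals could miss that flag. AIF1 was at 36.3 and 31.4 in HF on LIM arrays 1 and 2, but only 1 of its 4 HF channels on that slide was well above background. The LIM signals of WNT1 were between 20.5 and 46.2. In HER 2 of 4 arrays were above background, so no estimate is given there. The HER ratios were -0.37, 3.67, 0, and 2.66, and HER was not called (adjusted p = 0.12). WNT2B was at 0.59 (adjusted p = 0.12), with values of both signs.

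Of 15 other receptors and co-receptors, 6 were tested. The receptor FZD3 was higher by 0.78 (adjusted p = 0.0023) and above 0 on all 8 arrays. LRP6, a co-receptor of the canonical branch, fell by 0.84 (adjusted p = 0.0035) and was below 0 on all 8. SMO, a receptor of the Frizzled class that serves Hedgehog signals, was higher by 0.35 (adjusted p = 0.028), a call lost under 7 of 22 alternatives. FZD10, ROR2, and PTK7 lay between -0.36 and 0.30 and did not pass.

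Among transducers, beta-catenin (CTNNB1), AXIN1, GSK3A, GSK3B, and CSNK1D lay between -0.04 and 0.16 by the brightest probe of each, with limma adjusted p-values from 0.43 to 0.82. The second probe of GSK3A averaged 0.28 in HER and 0.11 in LIM, and that of CSNK1D 0.19 in HER and -0.56 in LIM. CTNNB1 was between 0.01 and 0.75 on 7 arrays and at -1.95 on LIM array 4. Of 8 nuclear factors and common targets, TCF7, a DNA-binding partner of beta-catenin, fell by 1.17 (adjusted p = 0.00016), and its second probe fell by 0.68 (adjusted p = 0.0012). NOV and CYR61, matrix-associated proteins of the family that also holds WISP1, were higher by 2.43 (adjusted p = 0.014) and 0.88 (adjusted p = 0.0047). NOV ran from 0.42 to 6.66 on the LIM arrays. TLE3, a corepressor, fell by 0.26 (adjusted p = 0.016, a call its second probe at -0.18 did not share), and JUN, a subunit of the AP-1 factor, by 0.33 (adjusted p = 0.0495, lost under 16 of 22 alternatives). MYC and CTGF, often used as targets, were at -0.04 and 0.48 and did not pass.

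Several of these sizes depend on the background correction. With normexp on the local backgrounds as measured, RSPO1 was at 1.23, WNT11 at -0.29, LRP6 at -0.27, and DKK2 at -0.64, each still called (adjusted p = 0.0099, 0.027, 0.0085, and 0.0053). NOV, at 2.02, was then above RSPO1. In that setting RSPO3 (0.35), SMO (0.12), SOST (-0.06), WIF1 (-0.12), JUN (-0.28), and WNT1 (0.11) were not called.

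**Figure D4:**
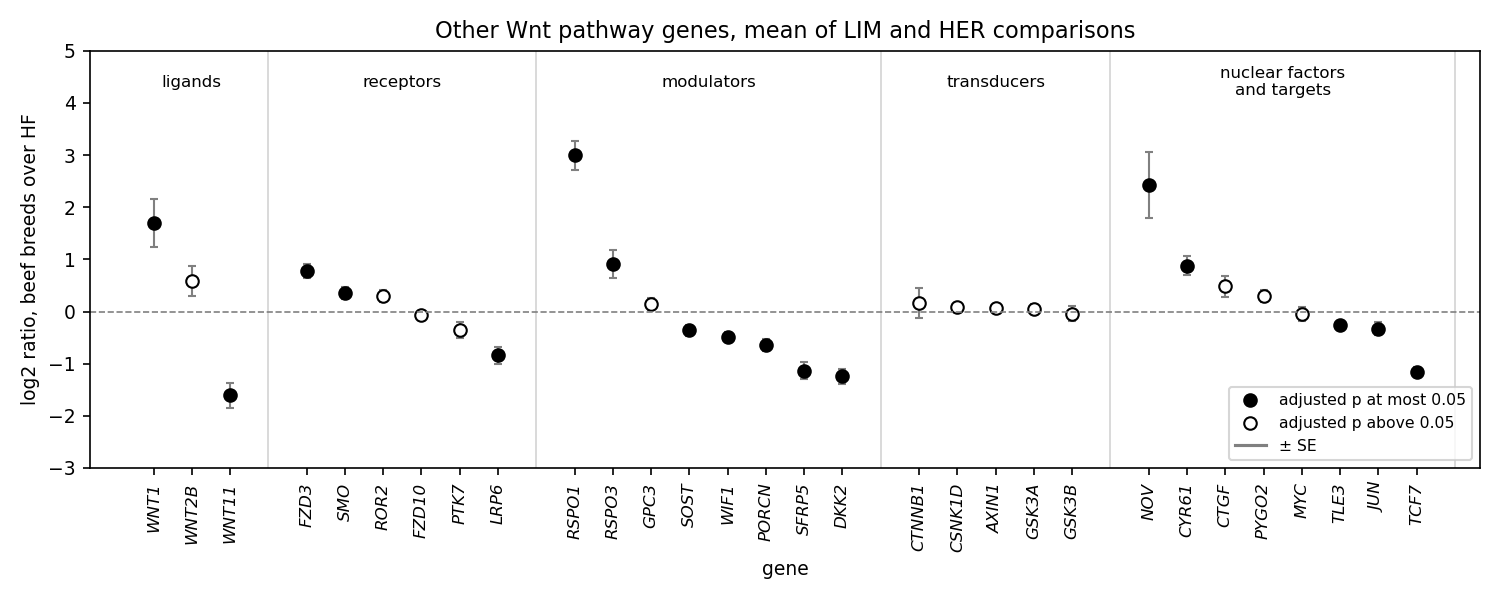
Log2 ratio of the beef breeds over HF (mean of the LIM and HER comparisons) with its SE for the 30 other pathway genes tested, by role, filled where the adjusted p was at most 0.05. RSPO1 at 3.00 and WNT11 at -1.60 are the extremes, the 5 transducers lie near 0, and the point of WNT1 rests on HF signals that were not well above background. For WNT11 the HER channel was well above background on 2 of 4 arrays.

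The HF values bear on how far the comparisons are independent of each other. Over all probes tested, the deviations of the HF signals on same-numbered arrays of both slides correlated with r from 0.62 to 0.82. Those of different numbers correlated with r from -0.38 to 0.02. The main fit took the 8 arrays as independent, so its p-values for the beef mean may be too small and its intervals too narrow. When the LIM and HER arrays of one number were averaged first, leaving 4 values, DKK3 and SFRP1 kept adjusted p-values of 0.0095 each in the beef mean. Of the other pathway genes 13 were called in that fit in place of 17, and RSPO3 (adjusted p = 0.06), SMO (0.079), SOST (0.068), TLE3 (0.078), and JUN (0.053) lost their calls while CTGF gained one (adjusted p = 0.036).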

How the data were processed

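Gene expression was measured on 8 two-colour oligonucleotide arrays, 4 that compared HER with HF and 4 that compared LIM with HF, with groups and replicate numbers taken from the labels. The authors deposited the output of Feature Extraction 10.7.3.1 for each array (44407 spots, array design on HGSC Btau_3.1), with a log10 ratio (red over green) for which the software had subtracted background and normalized dyes, processed and median signal intensity, and flags for outlying spots and detection. The deposited series table holds the same log10 ratio, with a median of 0 on each array.

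The log10 ratio was turned to log2 beef breed over HF (sign reversed on HER arrays). Control and outlying spots were left out, and spots of a probe were averaged. Processed signals were not scaled between arrays. Of 21475 probes, the 17622 whose signal was well above background in 4 or more of 16 channels were tested with limma 3.58.1 in R 4.3.3, with both comparisons in one fit and p adjusted by Benjamini-Hochberg over all probes tested. Intervals are 95% and unadjusted. The estimate for WNT1 set the bright group against the lowest signal well above background on each array, or the measured signal where higher, per channel after Aquantile scaling. It is open to dye bias on each slide and is not a strict lower bound.

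Names came from RefSeq accessions, of which 7793 of 20693 (8297 probes) were found in a gene table of assembly ARS-UCD2.0, so no coordinates are given, and no sequences were used here. The members and lists were chosen with earlier results of these data known. All members were named. Of each pathway list, up to 3 rises and 3 falls were named, and WIF1, SOST, and genes that did not pass were added after their values were seen. For a gene with several probes, the brightest was used. The adipocyte markers were called higher for 2 and lower for 3 of 7 genes tested in the beef mean, those of smooth muscle and pericytes higher for 3 of 6, those of endothelial cells lower for 1 of 5, and those of leukocytes higher for 1 and lower for 1 of 3.

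Alternatives covered background correction (none, or normexp with an offset of 50), centring, scaling, the filter on dim probes, outlying spots, the series table, the methods' t-test, a block for the replicate number, array weights, the probe of a gene, and leaving out each array. The steps were tested on simulated data. The qPCR and microscopy of the study were not analysed here.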

Additional observations from a re-analysis of the deposited data

Results flagged for a closer look

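One value was set apart from its group by a gap test for small samples, the gap to the nearest value divided by the range of the group. The log2 ratio of SFRP2 on LIM array 1 was -3.29, while the nearest of the other LIM arrays was at 2.36, a gap of 0.923 of the range and above the 95% critical value for 4 values. This test was made in 18 groups of 4 arrays (9 probes in 2 comparisons), and chance flags about 1 in 20 groups. On that array the LIM signal of SFRP2 was 346 and the HF signal 3386. The endothelial markers EMCN, KDR, and TIE1 were also below 0 there, at -1.95, -0.33, and -0.69, while TEK was at 0.63.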

How the results depend on the processing

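Of 591 values of the members under 24 alternatives, 548 kept their direction and their side of the threshold, 4 lost the call (all DKK3 in HER), 14 gained one, and 25 changed sign. DKK3 and SFRP1 were called higher in the beef mean under all 22 alternatives fitted with limma, with adjusted p-values from 9.5e-05 to 0.0095 and from 0.0013 to 0.0095. In the beef mean 2 to 3 members and 6187 to 9976 probes (8382 as reported) were called. Of 371 values of the 17 pathway genes called, 39 lost the call and 0 changed sign.

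Calls of members moved most in HER against HF. Members called there (1 as reported) numbered 3 with array weights, 2 with arrays centred, with scaling, without background correction, with all 16 channels well above background, and by the methods' t-test at its own thresholds, and 0 with that test after Benjamini-Hochberg and with normexp on local backgrounds as measured. Among all probes, 6169 were called in HER with array weights, 4189 with arrays centred, 5806 with scaling, and 4077 without background correction. It was 3864 among the probes with all 16 channels well above background, and 4822 by the t-test at its own thresholds. With normexp as measured, 0 probes were called in HER (4473 as reported, 2872 at an unadjusted p up to 0.05), and 11 pathway genes in place of 17. The methods' t-test after Benjamini-Hochberg called 2 probes in HER, 1078 in LIM (6330 as reported, 33.5% of them higher in place of 46.1%), and 0 members in LIM. HER arrays 2 and 3 and LIM arrays 1 and 4 held 11, 38, 15, and 5 spots with a red local background above 500, which enter normexp as measured.

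For LIM minus HER, 41 probes were called as reported, 224 with array weights, 76 with no filter on dim probes, 6 with scaling (5 higher and 1 lower, against 31 and 10), 1 without background correction, 1 with normexp and outlying backgrounds replaced, 0 with normexp as measured (2569 at an unadjusted p of at most 0.05), 0 with all 16 channels (1975 unadjusted), and 2133 by the methods' t-test at its own thresholds, which also called 1 member.

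Leaving out 1 array gave 0 to 2 members and 1527 to 5977 probes in HER, 2 to 3 members and 3796 to 7271 probes in LIM, and 1 to 14 probes in LIM minus HER. Probes called in HER were 1576, 1527, and 2667 without HER arrays 1, 2, and 3. Signs that turned belonged to values that were not called. On leaving out 1 array, the log2 value ranged from -0.51 to 0.97 for SFRP4 in HER, from -0.44 to 0.49 for SFRP4 and from -0.21 to 0.050 for FZD7 in LIM, from -0.15 to 0.97 for SFRP2 and from -0.24 to 0.50 for SFRP4 in the beef mean, and from -0.080 to 1.01 for DKK3, from -0.044 to 0.22 for FZD7, and from -0.93 to 0.55 for SFRP4 in LIM minus HER. With normexp as measured, FZD7 was at 0.021 in HER, 0.033 in LIM, and 0.027 in the beef mean, AXIN2 at 0.016 in the beef mean, and SFRP2 at 0.37 in HER. FZD7 in LIM was at 0.023 with array weights and 0.012 with backgrounds replaced, AXIN2 in the beef mean at 0.014 without background correction, DKK3 in LIM minus HER at -0.16 with scaling, and SFRP4 in LIM minus HER at 0.17 with array weights.

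The replicate numbers were not taken as a pairing in the main fit, since the labels do not state one. Ratio deviations correlated with r from -0.24 to 0.54 on same-numbered arrays and from -0.47 to 0.40 on the others. The HF signals of same-numbered arrays correlated with r from 0.62 to 0.82, as given above. With the number as a replicate block, 0 probes were called in LIM minus HER (2741 at an unadjusted p of at most 0.05), FZD1 passed in the beef mean (adjusted p = 0.041, but 0.13 with the arrays of one number averaged), and no other call of a member changed. Averaging the arrays of one number and a random replicate block (147 probes in LIM minus HER, within-block correlation 0.19) were chosen after seeing the data. The cause of these changes was not tested. Signal over background limits FRZB, the second AXIN2 probe, WNT1 in HF, and WNT11 in HER.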
